A study of Homo sapiens with 6 samples.

Results

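The APOBEC3 genes encode cytidine deaminases, and all 7 members of the human family, APOBEC3A, APOBEC3B, APOBEC3C, APOBEC3D, APOBEC3F, APOBEC3G and APOBEC3H, were found by symbol among the 58825 genes of the deposited table. Messenger RNA had been sequenced from T24, a long-established cell line of human bladder carcinoma origin. The libraries carried a short hairpin against DLGAP5 (shDLGAP5-1, 3 libraries) or a control hairpin (shNC-1, 3 libraries); the labels call the control genotype WT and name no other agent, clone or time point. DLGAP5 is a protein of the mitotic spindle, and the series asks about its part in bladder cancer. The comparison made here asks which APOBEC3 transcripts differed between the hairpins. Only 1 hairpin was used against DLGAP5, so what is due to loss of DLGAP5 and what to that hairpin cannot be told apart. Whether the libraries came from separate cultures is not stated, so the spread behind each p-value is that of these libraries alone and may be technical.

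APOBEC3 enzymes turn cytosine into uracil in single-stranded DNA. They are known for restricting retroviruses and retrotransposons, whose DNA copies they mutate, and several members are induced by interferon. APOBEC3A and APOBEC3B also act on the cell's own DNA, and their mutational signature is common in bladder carcinoma. Each enzyme holds a single zinc-coordinating domain (APOBEC3A, APOBEC3C, APOBEC3H) or a pair of them (APOBEC3B, APOBEC3D, APOBEC3F, APOBEC3G). The genes arose by tandem duplication and lie head to tail on chromosome 22. In the deposited coordinates, which match GRCh38, the family runs on the plus strand from APOBEC3A (ENSG00000128383), which starts at 38952741, to APOBEC3H (ENSG00000100298), which ends at 39104067. In between lie APOBEC3B (ENSG00000179750, from 38982347 to 38992804), APOBEC3C (ENSG00000244509, from 39014257 to 39020352), APOBEC3D (ENSG00000243811, from 39021113 to 39033277), APOBEC3F (ENSG00000128394, from 39040604 to 39055972) and APOBEC3G (ENSG00000239713, from 39077067 to 39087743).

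Levels are FPKM, fragments normalised for transcript length and library depth, so genes of different length can be compared. Depth, estimated from the value of a single fragment in single-exon genes, was about 13700000, 13800000 and 18300000 fragments in shDLGAP5-1 replicates 1 to 3 and 21600000, 27500000 and 24500000 in shNC-1 replicates 1 to 3. DLGAP5 itself stood at 5.03, 4.0 and 7.51 FPKM in shDLGAP5-1 libraries, against 33, 32.7 and 29.7 FPKM in shNC-1 libraries, as the labels say. The epithelial keratins KRT7, KRT8 and KRT18 were at 237 FPKM or more in every library and the mesenchymal marker VIM at 1134 FPKM or more, while KRT20 and the uroplakin genes UPK1A, UPK1B and UPK2, which mark differentiated urothelium, were at 0.201 FPKM or less; a further uroplakin gene, UPK3A, had 2.28 FPKM in shDLGAP5-1 replicate 3 and was listed at 0 elsewhere. Other epithelial markers were low, with CDH1 at 0.167 FPKM or less, GATA3 at 0.544 or less and EPCAM at 0.765 to 1.18, and the basal keratin KRT5 had 3.95 FPKM in shNC-1 replicate 2 and 0.373 or less elsewhere. White blood cell transcripts stood out in 1 library: 14 of 23 leukocyte markers reached 1 FPKM in shDLGAP5-1 replicate 3, with a summed level of 862 FPKM (686 FPKM of it from LYZ), against 3 to 4 markers and sums of 15.7 to 43.3 FPKM in the other 5 libraries. The lymphocyte markers CD2, CD3D, CD3E and MS4A1 were listed at 0 in all 6 libraries, while CD79A reached 0.169 FPKM at most and NKG7 had 3.16 FPKM in shDLGAP5-1 replicate 3 and 0.153 or less elsewhere.

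The expressed APOBEC3 genes were all higher in shDLGAP5-1 cells. The fold change was largest for APOBEC3G. APOBEC3F and APOBEC3D came next, and the more abundant APOBEC3B and APOBEC3C last. With quantile normalization of log2(FPKM + 1) APOBEC3D had the smallest value (0.53, against 0.55 for APOBEC3C and 0.62 for APOBEC3B). In quantile-normalized FPKM without the added 1, APOBEC3D rose slightly more than both. There the log2 ratio to APOBEC3D, shDLGAP5-1 minus shNC-1, was −0.12 for APOBEC3C and −0.03 for APOBEC3B, with overlapping groups. APOBEC3A and APOBEC3H were near or at 0 in both groups. The limma test on log2(FPKM + 1) took genes that reached 1 FPKM in 3 or more libraries, and 5 of the 7 members passed that filter; 5 rose and 0 fell at an adjusted p under 0.05. The number that rose was 3 without shNC-1 replicate 1 and 3 without shNC-1 replicate 2. Over all 12714 tested genes 24.8% passed, 15.3% as higher and 9.52% as lower. In all 5, every shDLGAP5-1 library was above every shNC-1 library, which held for 25.6% of all tested genes, with 18.3% the other way round. The median log2 fold change was 0.70 over the 5 members and 0.03 over all tested genes. In bulk RNA, more cells that express a gene and more RNA per cell cannot be told apart.

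**Figure D1:**
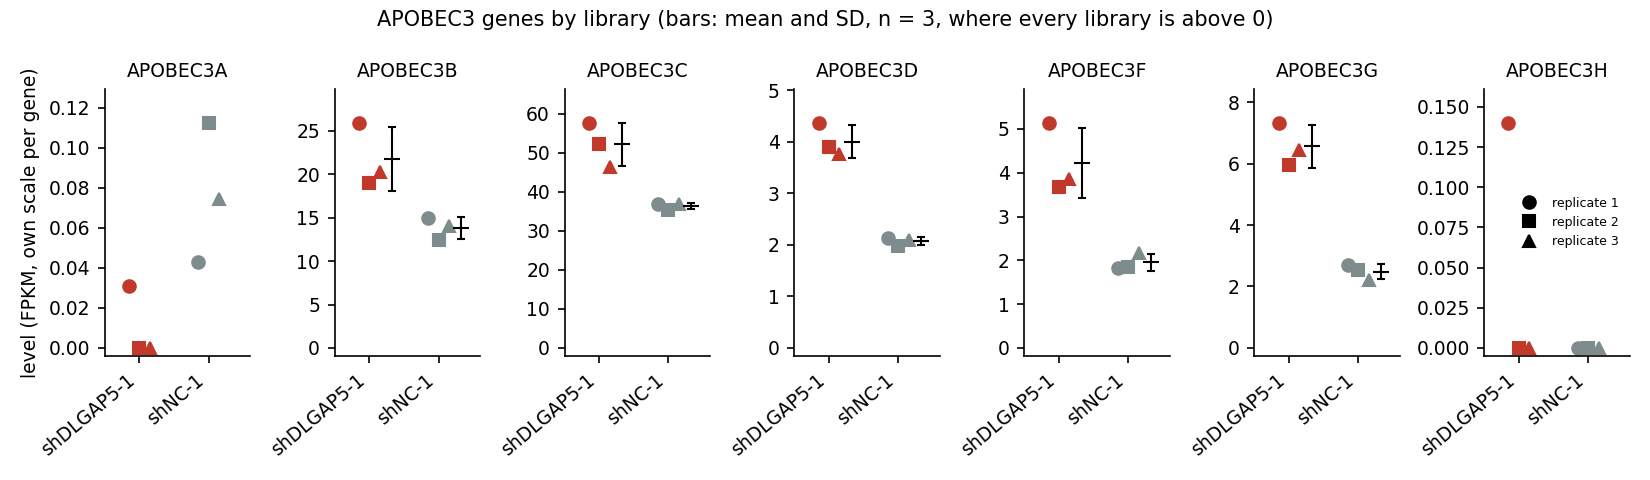
Level of each APOBEC3 gene in FPKM (vertical axis, a separate scale for each gene) in the 3 shDLGAP5-1 libraries (red) and the 3 shNC-1 libraries (grey), with symbols for the replicate number and bars for mean and SD where no library is at 0. For APOBEC3B, APOBEC3C, APOBEC3D, APOBEC3F and APOBEC3G every shDLGAP5-1 library lies above every shNC-1 library, while APOBEC3A stays under 0.113 FPKM and APOBEC3H is above 0 in 1 library.

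APOBEC3G, the member best known for mutating the DNA copies of HIV, showed the largest rise. It stood at 7.33, 5.94 and 6.43 FPKM in shDLGAP5-1 replicates 1 to 3, against 2.70, 2.53 and 2.22 FPKM in the same-numbered shNC-1 libraries. The groups did not overlap, and the lowest shDLGAP5-1 library was well above the highest control. The means were 6.56 ± 0.703 against 2.48 ± 0.247 FPKM (SD, n = 3 each), a ratio of 2.64. The fold change on the log2(FPKM + 1) scale, where low genes appear to change less than they do, was 1.12 (standard error 0.126, adjusted p = 0.00195), the 315th largest rise among the tested genes.

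APOBEC3F, a cytoplasmic deaminase that restricts HIV lacking its Vif protein, had 5.14, 3.68 and 3.86 FPKM in shDLGAP5-1 and 1.82, 1.86 and 2.17 FPKM in shNC-1. Replicate 1 was the highest of the shDLGAP5-1 libraries, and all 3 of them were above all 3 controls. Its mean was 4.23 ± 0.795 against 1.95 ± 0.194 FPKM (SD, n = 3 each), a ratio of 2.17, and the log2 fold change was 0.82 (standard error 0.144, adjusted p = 0.00859).

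APOBEC3D, another 2-domain member that can be packaged into retroviral particles, had 4.37, 3.89 and 3.76 FPKM in shDLGAP5-1 and 2.13, 1.98 and 2.10 FPKM in shNC-1. Both groups were tight and did not overlap. The means were 4.01 ± 0.323 against 2.07 ± 0.0764 FPKM (SD, n = 3 each), a ratio of 1.94, and the log2 fold change was 0.70 (standard error 0.112, adjusted p = 0.00620). Its split from a read-through entry of the annotation is uncertain, as described below.

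APOBEC3B, the mostly nuclear member that is held to mutate many tumour genomes, had 25.9, 19.0 and 20.3 FPKM in shDLGAP5-1 and 14.95, 12.4 and 14.0 FPKM in shNC-1. All shDLGAP5-1 libraries were above all controls, with replicate 1 above the other 2. The means were 21.7 ± 3.68 against 13.8 ± 1.27 FPKM (SD, n = 3 each), a ratio of 1.57, and the log2 fold change was 0.61 (standard error 0.144, adjusted p = 0.0229). The call was lost without any of the 3 shNC-1 libraries (adjusted p = 0.0538, 0.09 and 0.0601 without replicates 1, 2 and 3), with median-ratio scaling (0.0537) and with no filter on low genes (0.0601).

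APOBEC3C, a single-domain enzyme expressed in many tissues, was the most abundant member. It had 57.7, 52.3 and 46.5 FPKM in shDLGAP5-1 and 36.8, 35.4 and 36.9 FPKM in shNC-1. The controls lay close together and below every shDLGAP5-1 library. The means were 52.2 ± 5.61 against 36.3 ± 0.855 FPKM (SD, n = 3 each), a ratio of 1.43, and the log2 fold change was 0.50 (standard error 0.110, adjusted p = 0.0177). This call was lost without shNC-1 replicate 1 (adjusted p = 0.0626) or 2 (0.0784), without shDLGAP5-1 replicate 2 (0.0555) and with median-ratio scaling (0.0632).

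APOBEC3A, an enzyme known from myeloid cells and keratinocytes, was barely detected. It had 0.0312 FPKM in shDLGAP5-1 replicate 1 and was listed at 0 in replicates 2 and 3; in shNC-1 it had 0.0431, 0.113 and 0.0745 FPKM. The shDLGAP5-1 libraries were thus below the controls, but these values stand for about 1, 0 and 0 fragments against about 1, 5 and 3 fragments. Without the filter its adjusted p was 0.150, so no change was detectable at this depth. APOBEC3H, a single-domain deaminase against retroviruses, had 0.140 FPKM (about 2 fragments) in shDLGAP5-1 replicate 1 and was listed at 0 in the other 5 libraries.

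Leaving out the library rich in leukocyte transcripts, shDLGAP5-1 replicate 3, left 5 members called higher, with log2 fold changes of 0.65 for APOBEC3B, 0.58 for APOBEC3C, 0.74 for APOBEC3D, 0.86 for APOBEC3F and 1.13 for APOBEC3G. In that library APOBEC3G, which leukocytes also express, lay between the other 2 shDLGAP5-1 libraries, and APOBEC3A and APOBEC3H were listed at 0.

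**Figure D2:**
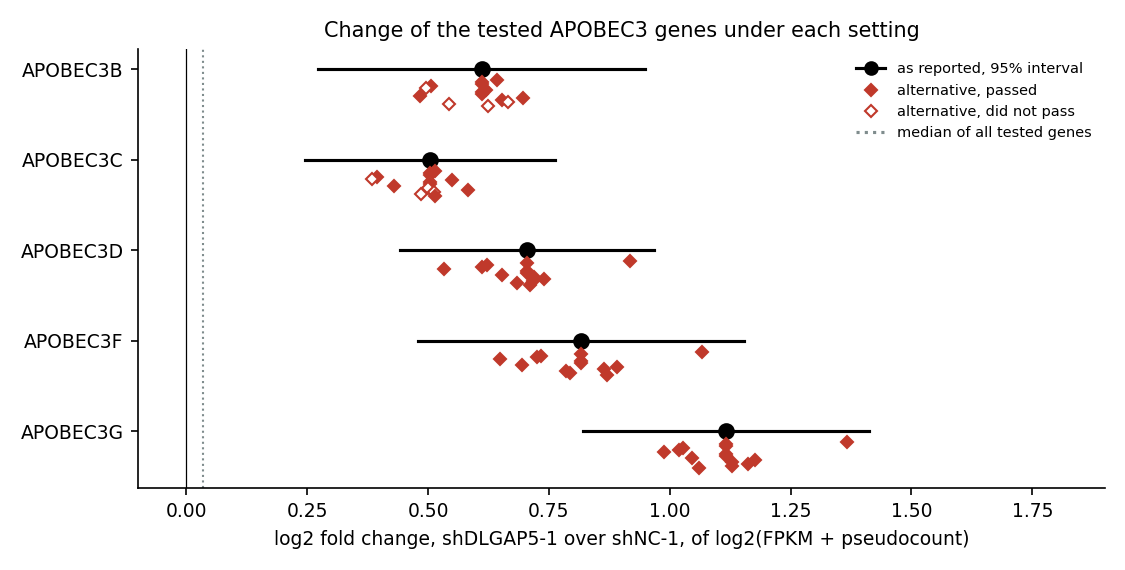
Log2 fold change of shDLGAP5-1 over shNC-1 (horizontal axis) for the 5 tested members, with the 95% interval of the fit as reported (black) and the value under each alternative setting (diamonds, filled where the adjusted p stayed under 0.05). No value lies at or under 0; open diamonds appear for APOBEC3B and APOBEC3C alone, and APOBEC3G lies between 0.99 and 1.37.

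The rises of APOBEC3D, APOBEC3F and APOBEC3G kept an adjusted p under 0.05 in every alternative in which they were tested, including each fit without 1 library. Median-ratio scaling moved the median of all genes by −0.103; relative to that median the log2 fold changes were 0.58 as reported and 0.56 with that scaling for APOBEC3B, 0.47 and 0.45 for APOBEC3C, 0.67 and 0.68 for APOBEC3D, 0.78 and 0.79 for APOBEC3F, and 1.08 and 1.09 for APOBEC3G. The split of all calls moved too, with 61.6% of them higher as reported and 42.3% with median-ratio scaling.

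Within each group the order of levels was headed by APOBEC3C, then APOBEC3B, then APOBEC3G. These 3 did not overlap with each other in either group. The levels of APOBEC3F and APOBEC3D overlapped in both groups: 3.68 to 5.14 against 3.76 to 4.37 FPKM in shDLGAP5-1, and 1.82 to 2.17 against 1.98 to 2.13 FPKM in shNC-1. The level of APOBEC3G was above both of these in every library. At their mean over the 6 libraries APOBEC3C was above 88.4% of the tested genes, APOBEC3B above 69.8%, APOBEC3G above 29.7%, APOBEC3F above 21.0% and APOBEC3D above 20.7%.

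Summed over the 7 members, APOBEC3 transcripts came to 100.6, 84.8 and 80.8 FPKM in shDLGAP5-1 and to 58.5, 54.3 and 57.5 FPKM in shNC-1. The mean sum was 88.8 ± 10.5 against 56.7 ± 2.18 FPKM (SD, n = 3 each), a ratio of 1.56. In an exact two-sided permutation test p was 0.1, and no smaller p is possible with groups of 3. APOBEC3C made up 58.8% ± 2.42 of the sum in shDLGAP5-1 and 64.1% ± 1.09 in shNC-1 (SD, n = 3 each; exact permutation p = 0.1). APOBEC3G made up 7.41% ± 0.489 against 4.38% ± 0.456 (exact permutation p = 0.1). The share of APOBEC3B was 24.4% ± 1.76 against 24.3% ± 1.34 and differed by less than the spread between libraries (exact permutation p = 0.9).

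Ratios between members within a library do not depend on scaling a library by 1 factor, though quantile normalization moves them. Of 10 pairs of tested members 7 had ratios that did not overlap between groups, against 43.9% of all pairs of tested genes. With quantile normalization the number was 4, and each of these pairs held APOBEC3G. The share of all pairs was not computed with that normalization, so the 4 have no background to be set against. Pairs that share a member are not separate results. The log2 ratio of APOBEC3G to APOBEC3C was −2.98, −3.14 and −2.85 in shDLGAP5-1 and −3.77, −3.80 and −4.06 in shNC-1, a difference of 0.89. All 3 shDLGAP5-1 values were above all 3 controls. The difference was 0.76 for APOBEC3G to APOBEC3B, 0.59 for APOBEC3F to APOBEC3C, 0.46 for APOBEC3F to APOBEC3B, 0.45 for APOBEC3G to APOBEC3D, 0.43 for APOBEC3D to APOBEC3C and 0.30 for APOBEC3D to APOBEC3B. The pairs that overlapped were APOBEC3G to APOBEC3F (difference 0.30, exact permutation p = 0.2), APOBEC3F to APOBEC3D (0.15, p = 0.3) and APOBEC3B to APOBEC3C (0.13, p = 0.3). For the 7 others the exact permutation p was 0.1, the smallest possible, or 0.143 after adjustment over the 10 pairs, so none passes a threshold of 0.05 and this design cannot make one pass.

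**Figure D3:**
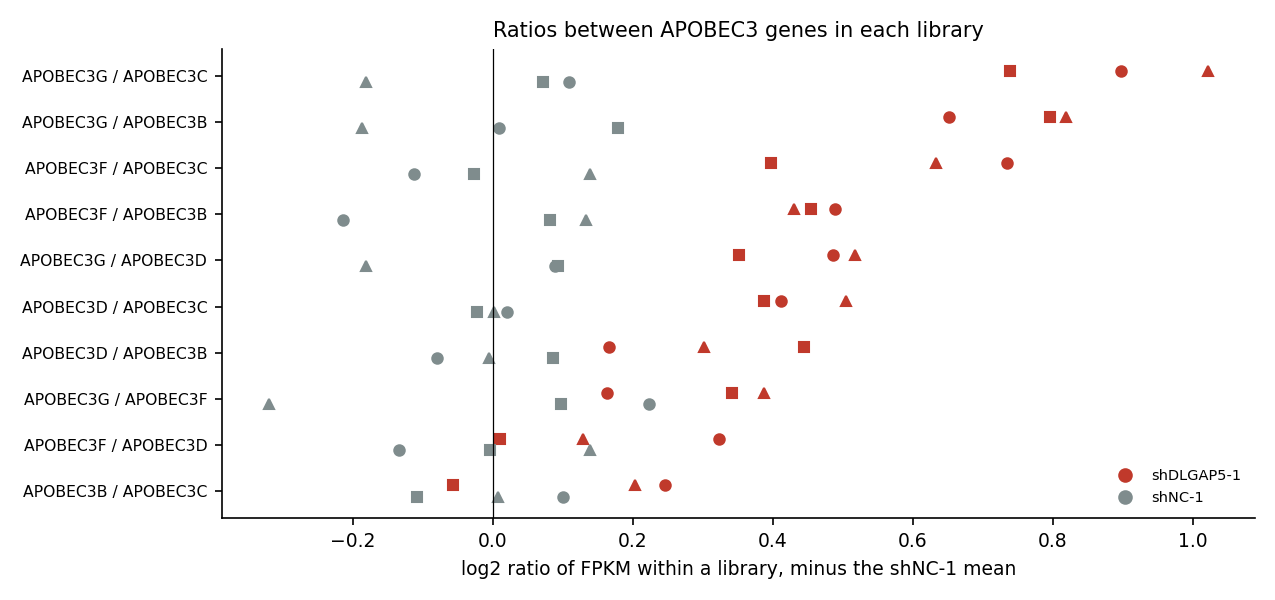
Log2 ratio of FPKM between 2 members within a library, minus the mean of that ratio in shNC-1 (horizontal axis), for the 10 pairs of tested members, with shDLGAP5-1 libraries in red, shNC-1 libraries in grey and symbols for replicates 1 (circle), 2 (square) and 3 (triangle). The groups are apart in the upper 7 pairs, most widely for APOBEC3G to APOBEC3C, and overlap in the lower 3.

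The members are close paralogs, so the split of reads between them depends on how the authors counted, which is not given in the sources used here. In GENCODE release 29 the share of a member's distinct stretches of 100 bases that also occur in a transcript of another gene was 0% for APOBEC3C and APOBEC3H, 5.05% for APOBEC3G, 13.3% for APOBEC3F, 18.4% for APOBEC3A and 25.1% for APOBEC3B. APOBEC3G shared its stretches with APOBEC3F alone. APOBEC3B shared 18.8% with APOBEC3A, an entry with a transcript that reaches across APOBEC3B. For APOBEC3D the share was 80.2%, nearly all of it (79.2%) with AL022318.4, an entry that spans APOBEC3C and APOBEC3D and was listed at 0 in all 6 libraries. With stretches of 50 bases the shares were 1.14% for APOBEC3C, 7.31% for APOBEC3G, 21.0% for APOBEC3F, 37.8% for APOBEC3B and 85.8% for APOBEC3D. APOBEC3B-AS1, an antisense transcript across the end of APOBEC3B, was listed at 0 in all 6 libraries.

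In approximate fragments, the values of APOBEC3G stand for 278, 227 and 326 fragments in shDLGAP5-1 and 162, 193 and 151 in the deeper shNC-1 libraries. APOBEC3C had 2030 to 2396 fragments in shDLGAP5-1 and 2244 to 2745 in shNC-1, and APOBEC3B 484 to 684 against 596 to 634. APOBEC3D had 151, 136 and 174 fragments in shDLGAP5-1 and 116, 138 and 130 in shNC-1, and APOBEC3F 190, 137 and 190 against 106, 138 and 143. The fragment numbers of these 4 genes overlapped between the groups, so their separation in FPKM rests on the division by depth, while those of APOBEC3G did not overlap. All of these numbers were computed from FPKM and the estimated depth, so they add no separate evidence on any member.

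Within 500 kb on either side of the cluster 22 other genes were tested. Of these 6 rose, a larger share than the 15.3% of all tested genes. The 1 that fell made up a smaller share than the 9.52% of all tested genes. The median log2 fold change was 0.14 over these neighbours and 0.03 over all tested genes. CBX7, a Polycomb chromobox gene that lies just past APOBEC3H, had 7.34, 8.49 and 8.35 FPKM in shDLGAP5-1 and 2.46, 2.32 and 2.35 FPKM in shNC-1. Its log2 fold change of 1.42 (adjusted p = 0.000771) was above that of every APOBEC3 gene. PDGFB, a growth factor of the platelet-derived family, rose by 0.59 (adjusted p = 0.00789), a call kept in all alternatives, as was that of CBX7. Of the 6 rises only those of PDGFB and CBX7 were kept without shNC-1 replicate 2. In that fit 879 of 12539 tested genes were called higher.

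On the side of APOBEC3A, CBX6, another chromobox gene, rose by 0.58, DNAL4, a dynein light chain, by 0.60, and CBY1, an inhibitor of beta-catenin, by 0.54. RPL3, a protein of the large ribosomal subunit, rose by 0.62 on the far side. TOMM22, a receptor of the mitochondrial outer membrane translocase, was the gene that fell (−0.57). The call of RPL3 was lost when replicate 1 or 3 of shDLGAP5-1 or replicate 1 or 2 of shNC-1 was left out, those of CBY1 and DNAL4 without shNC-1 replicate 1 or 2, that of CBY1 also without shDLGAP5-1 replicate 2, and that of CBX6 without shNC-1 replicate 2. With median-ratio scaling the calls of RPL3 and CBY1 were lost, and with no filter that of RPL3. The other 15 tested neighbours, SUN2 and ATF4 among them, did not pass. Along the chromosome the log2 fold changes of the tested members were 0.61, 0.50, 0.70, 0.82 and 1.12 from APOBEC3B to APOBEC3G. A pseudogene between APOBEC3G and APOBEC3H, AL031846.1, had 0.348, 0.192 and 0.179 FPKM in shDLGAP5-1 and 0.153, 0.183 and 0 FPKM in shNC-1.

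**Figure D4:**
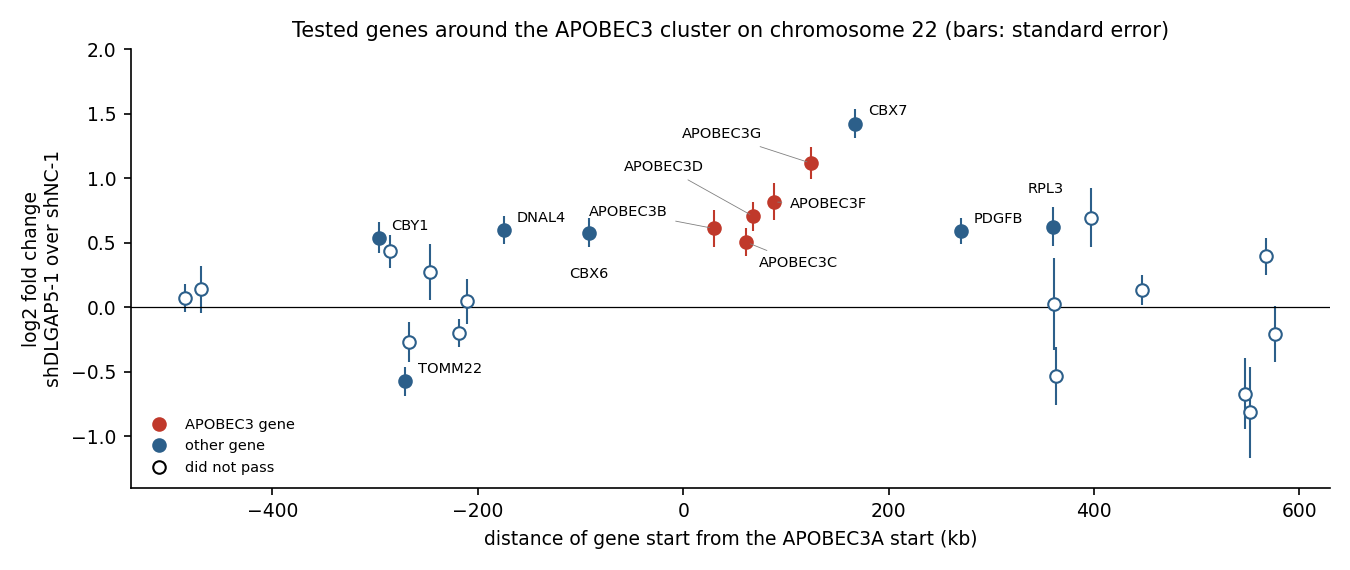
Log2 fold change of shDLGAP5-1 over shNC-1 with its standard error (vertical axis) against the distance of the gene start from that of APOBEC3A in kb (horizontal axis), for the 5 tested APOBEC3 genes (red) and the 22 tested neighbours (blue); filled points passed and are named. The APOBEC3 genes lie between 0.50 and 1.12, CBX7 above them at 1.42, and the neighbours on both sides spread over positive and negative values.

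The genes nearest to each member in their pattern were chosen by the Euclidean distance of log2(FPKM + 1), taken from the control mean, over the 6 libraries. They were OBSL1, a cytoskeletal linker, for APOBEC3D (distance 0.0426), ANXA2R, an annexin A2 receptor, for APOBEC3F (0.0791) and ZDHHC24, a palmitoyltransferase family gene, for APOBEC3C (0.0795). For APOBEC3G the nearest was TMC6, a transmembrane channel-like gene (0.109), and for APOBEC3B it was RSBN1L (0.124). The next nearest were ABHD3 (0.133) and LIMD2 (0.149) for APOBEC3B, MPHOSPH8 (0.0825) and TIGD5 (0.0850) for APOBEC3C, HAPLN3 (0.0803) and TFPI (0.0805) for APOBEC3D, LNP1 (0.110) and NUP50-DT (0.124) for APOBEC3F, and TPD52L1 (0.127) and C1RL (0.155) for APOBEC3G. These libraries form only 2 groups, so any gene that rose by a like amount comes close.

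Other restriction factors, the proteins that block viruses and retroelements by other means, rose more often than they fell. Of 24 tested members 11 rose (45.8%, against 15.3% of all tested genes) and 1 fell (2 without shDLGAP5-1 replicate 3); the median over the list was 0.39 on the log2 scale. IFITM1, a membrane protein against virus entry, stood at 27.3 ± 6.23 against 2.10 ± 0.657 FPKM (SD, n = 3 each), and MX1, a dynamin-like GTPase against viral nucleocapsids, at 6.77 ± 0.570 against 1.67 ± 0.401 FPKM. GBP2, a guanylate-binding protein, rose by 1.46 and IFITM3 by 1.91 on the log2 scale; the IFITM genes are close paralogs, and how their reads were divided is not known. The gene that fell was TRIM25, a ubiquitin ligase of RNA sensing, at −0.64, a call lost without any single shNC-1 library or shDLGAP5-1 replicate 2. SAMHD1, which removes the nucleotides needed for reverse transcription, had a log2 fold change of 0.37 (adjusted p = 0.276) and did not pass; it was named after its value was seen.

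Genes held to regulate APOBEC3 transcription changed both ways: of 25 tested 7 rose (28.0%) and 4 fell (16%), against 15.3% and 9.52% of all tested genes, with a median of 0.11. IRF7, a transcription factor that amplifies interferon, stood at 23.7 ± 3.85 against 8.64 ± 1.18 FPKM (SD, n = 3 each), and IRF1, another interferon regulatory factor, at 21.9 ± 2.61 against 11.8 ± 1.74 FPKM. TEAD4, a TEA domain factor, fell by 0.69 (adjusted p = 0.00378). The other falls were FOXM1, a mitotic transcription factor (−0.73), MYBL2, a partner of the MuvB complex (−0.39), and PRKCA, a protein kinase C (−0.55). The call of TEAD4 was kept in all alternatives, while that of FOXM1 was lost without shNC-1 replicate 1 or 2. Those of MYBL2 and PRKCA were lost without any single shNC-1 library or shDLGAP5-1 replicate 2. PRKCA was also lost without shDLGAP5-1 replicate 1, with no filter and with same-total scaling, and MYBL2 with quantile normalization. RELA, a subunit of NF-kappa-B, varied widely at 38.7 ± 16.2 against 36.4 ± 12.1 FPKM and did not pass. Rises numbered 4 when replicate 1 or 3 of either group was left out and 3 without shNC-1 replicate 2. Falls numbered 1 without shNC-1 replicate 1 or 2, and 2 without shDLGAP5-1 replicate 2 or shNC-1 replicate 3.

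Uracil in DNA is cut out by UNG and other glycosylases and repaired or bypassed by the enzymes downstream. Of 23 tested genes of these steps 5 rose (21.7%, against 15.3% of all tested genes) and 1 fell (4.35%, against 9.52%), shares not far from those of all genes; the median over the list was 0.09 on the log2 scale. MSH6, of mismatch repair, rose by 0.85 (adjusted p = 0.0108), and its call held in all alternatives. DUT, the enzyme that keeps uracil out of DNA by cleaving dUTP, rose by 0.67, RPA3, a subunit of the single-strand binding protein, by 0.43 and REV1, a translesion polymerase, by 0.41; PARP1, a sensor of strand breaks, fell by 0.62. The calls of DUT, RPA3, REV1 and PARP1 were each lost in at least 3 fits without 1 library. The list had 1 rise without shNC-1 replicate 1 or 2, 2 when shDLGAP5-1 replicate 1 or 2 or shNC-1 replicate 3 was left out, and 3 without shDLGAP5-1 replicate 3, which also gave 2 falls; there were 0 falls without shDLGAP5-1 replicate 2 or any shNC-1 library. UNG itself varied widely, at 19.0 ± 9.38 against 20.2 ± 8.54 FPKM (SD, n = 3 each; adjusted p = 0.840).

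The relatives APOBEC1, APOBEC2 and APOBEC4, which lie outside the cluster, were listed at 0 in all 6 libraries. Of 7 tested genes of RNA editing and nucleotide deamination 0 rose and 1 fell (14.3%, against 9.52% of all tested genes). That gene, ADARB1, an adenosine deaminase of RNA, stood at 10.8 ± 1.96 against 18.9 ± 0.577 FPKM (SD, n = 3 each; log2 fold change −0.77, adjusted p = 0.0105). ADAR, which also edits adenosines and has a form induced by interferon, stood at 26.9 ± 7.41 against 23.7 ± 3.06 FPKM and did not pass (adjusted p = 0.628).

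Of 14 tested genes for proteins that bind APOBEC3 enzymes or serve the viral Vif ligase against them, 0 rose and 4 fell (28.6%). Of all tested genes 15.3% rose and 9.52% fell. The median over the list was −0.14 on the log2 scale. Falls numbered 2 without shDLGAP5-1 replicate 2 or any single shNC-1 library. Without shDLGAP5-1 replicate 1 there was 1 rise, of ZC3H7B, which had 0.39 with all libraries (adjusted p = 0.0748). TRIB3, a pseudokinase known to bind APOBEC3A, stood at 48.8 ± 3.58 against 103.6 ± 7.97 FPKM (SD, n = 3 each; log2 fold change −1.07). ELOC, elongin C of cullin ligases, stood at 41.8 ± 5.89 against 82.3 ± 4.04 FPKM (−0.97). The ligase ARIH2 (−0.60) and the RNA-binding protein YBX1 (−0.42) fell too, and both calls were lost without any single shNC-1 library or shDLGAP5-1 replicate 2. CBFB, the cofactor of Vif, had 21.9 ± 9.42 against 28.5 ± 5.00 FPKM and did not pass (adjusted p = 0.322).

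**Figure D5:**
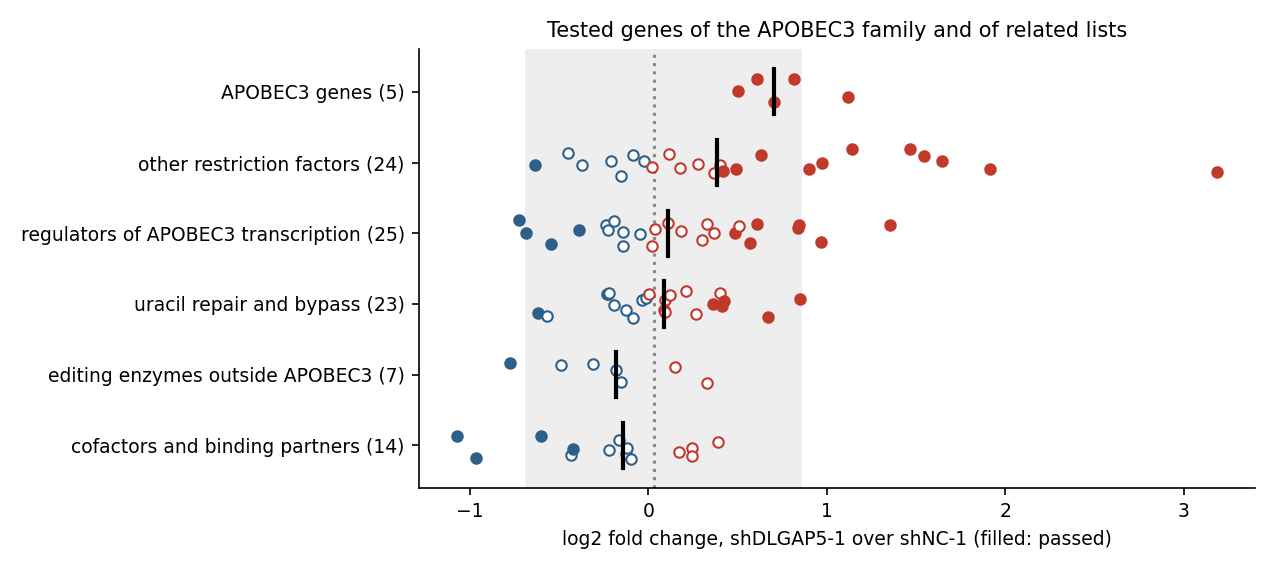
Log2 fold change of shDLGAP5-1 over shNC-1 (horizontal axis) of the tested APOBEC3 genes and of the tested genes of 5 related lists, with filled points for genes that passed, red above and blue below 0, black bars for list medians, a dotted line at the median of all tested genes and grey shading from their 5th to 95th percentile (−0.69 to 0.85). All 5 APOBEC3 points are filled and to the right of 0, and the other restriction factors reach up to 3.19.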

How the data were processed

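The values were normalized by the authors before they were deposited and are taken here as FPKM: the header names no unit, and this is read from the values, in which a single fragment in a single-exon gene is worth less the longer the gene is. The software for alignment and counting, its gene models and its strand setting were not given in the sources used here. Control columns carry NC and a replicate number; the other 3 columns, which carry a construct number, were given to shDLGAP5-1, the only other group. Genes that reached 1 FPKM in 3 or more libraries were tested on log2(FPKM + 1) with limma 3.58.1 in R 4.3.3 (trended variance, group as the only term, Benjamini-Hochberg adjustment over all 12714 tested genes, threshold 0.05). The fit was tested on simulated data. Approximate fragments are FPKM times the longest GENCODE 29 transcript times depth, and carry the error of both; only the listed values, not these numbers, were tested. The members and the gene lists were chosen with earlier results of these data known. Genes named are the 7 members, the 3 nearest in pattern to each tested member, neighbours within 500 kb, and of each list every gene called where these were at most 6, otherwise the 4 with the smallest p; other falls and genes that did not pass were chosen after their values were seen. Some genes counted in the lists are not reported here by name. The alternatives tried were 0.1 as pseudocount, a robust prior, a replicate block, 3 further scalings, all genes unfiltered, a 5 FPKM minimum, and the fits that leave out each library.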

Additional observations from a re-analysis of the deposited data

How the results depend on the processing

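APOBEC3 fold changes kept their sign in every alternative that gave a value. Over fits without 1 library they ran from 0.48 to 0.70 for APOBEC3B, 0.43 to 0.58 for APOBEC3C, 0.65 to 0.74 for APOBEC3D, 0.69 to 0.89 for APOBEC3F and 1.05 to 1.18 for APOBEC3G. The number of members called higher ran from 3 to 5 in these fits, and was 3 with a filter of 5 FPKM, which leaves APOBEC3D and APOBEC3F untested, and 3 with median-ratio scaling, where APOBEC3B (0.49) and APOBEC3C (0.38) did not pass; APOBEC3B (0.61) also missed with no filter. Same-numbered libraries did not deviate together (correlations of −0.155, 0.021 and −0.157), so no pairing by number was seen. With 3 libraries in each group this check cannot exclude a pairing. With the replicate block APOBEC3C (0.50, adjusted p = 0.0697) missed and the other 4 members passed. The neighbours RPL3, CBY1, DNAL4, CBX6 and TOMM22 missed with the block too. Calls over all genes with the block numbered 951 higher and 513 lower, against 1944 and 1211. Calls over all genes were also 1168 higher with a filter of 5 FPKM, 1282 higher with same-total scaling, 769 lower with no filter and 1916 lower with median-ratio scaling, and ran from 879 to 1489 higher and 447 to 1317 lower without 1 library. Higher calls among uracil repair genes were 2 with no filter, 2 with same-total scaling, 1 with median-ratio scaling and 1 with the block, and lower calls 0 with no filter and 0 with the block; without 1 library they ran from 1 to 3 and from 0 to 2. Lower calls among restriction factors were 0 with no filter, 2 with median-ratio scaling, 0 with the block and 0 to 2 without 1 library, where 9 to 12 were higher. Higher calls among regulators were 4 with no filter, with same-total and with median-ratio scaling and 3 with the block, and lower calls 1 with the block; without 1 library they ran from 3 to 6 and 1 to 4. Lower calls among binding partners were 2 with no filter, 2 with the block and 2 to 4 without 1 library, where higher calls were 0 to 1. Lower calls among editing enzymes were 2 with same-total and 2 with median-ratio scaling. Pairs of members with ratios that did not overlap numbered 4 with quantile normalization and 7 to 8 without 1 library, alternatives chosen after seeing the data. The difference in the APOBEC3B share, 0.128 percentage points as reported, ran from −0.57 to 1.12 without 1 library, and that of the summed FPKM, 32.01, from 26.1 to 36.0. The cause of these differences was not tested. Low fragment numbers limit APOBEC3A and APOBEC3H, which cannot be compared at this depth.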
